A study of Homo sapiens with 8 samples.

Results

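The 48 genes described here encode the machinery that a cell assembles to divide: the checkpoint and its kinases, the chromosomal passenger complex, the kinetochore, the spindle, the cytokinetic ring, the anaphase switch, the condensed chromosome, and transcription factors that drive these genes. They were taken by name from a list of genes, with no measured value in the rule, and all 48 were found among the 58233 rows of the gene table. The list was, however, chosen with earlier results of these data known. Expression was compared between buds (n = 3) and bulks (n = 5) grown from HUES8 cells, a widely used line of human embryonic stem cells. The cells were differentiated as spheroids in flasks towards pancreatic islets and collected at stage 5. Buds are the outgrowths that were shaken off the spheroids and filtered out, and bulks are what remained. Bulks came from flasks 252, 261, 264, 270 and 274 and buds from flasks 264, 270 and 274. The labels name no genetic change or drug that separates the groups, so both share the cell line and the protocol, and all libraries stem from 1 line. The buds are a mechanical fraction, not cells sorted by type.

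In a dividing cell the kinetochore couples each centromere to spindle microtubules, and checkpoint kinases hold back the anaphase-promoting complex until every chromosome is attached. The complex, activated by CDC20, then marks securin and cyclin B for destruction, which frees separase to cut the cohesin rings that hold sister chromatids together. Many of these genes are transcribed late in the cell cycle by the MuvB complex with B-Myb (MYBL2) and FOXM1, through a promoter element called the cell cycle genes homology region (CHR), and are shut off in resting cells. In the developing pancreas, progenitors of the epithelium divide, while the hormone-secreting endocrine cells they give rise to largely leave the cell cycle.

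Library totals ran from 6083986 to 12508086 counts. Buds and bulks separated on the first principal component, with 72.4% of the variance, and the bulk of flask 264 stood apart on the second, with 9.1%. Values per library are in CPM (counts-per-million), scaled by TMM-adjusted library sizes. They are given for bulks in the order of flasks 252, 261, 264, 270 and 274 and for buds in the order 264, 270 and 274. Fold changes are log2 values of buds relative to bulks ± the standard error of edgeR's quasi-likelihood fit across 16641 genes, adjusted after Benjamini and Hochberg, with a threshold of 0.05. The labels separate the flasks but do not say that they were independent rounds of differentiation, so p-values measure the spread between these libraries.

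Most of the machinery was lower in buds. Of the 48 genes, 42 fell (87.5%), against 23.8% of all genes tested, and 3 rose (6.25%), against 23.4% of all genes. The other 3 did not pass the test, and 47.2% of all genes passed it in either direction. The median log2 difference was -2.17 over the 48 genes and -0.02 over all genes tested, and 29 of the 48 fell at least 4-fold, against 4.77% of all genes. Every bud lay below every bulk for 42 of the 48 genes (87.5%), the same 42 that fell, against 23.7% of all genes. This count and the count of calls rest on the same values and are not independent. Within flasks, 44 of the 48 were lower in the bud than in the bulk of the same flask in all 3 flasks that gave both, against 35.0% of all genes. In these mixed samples, fewer dividing cells and less of each transcript per cell cannot be told apart.

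The summed counts of the 48 genes made up 0.134 ± 0.0192% of all counts in bulks (SD, n = 5) and 0.0646 ± 0.00151% in buds (SD, n = 3). The lowest bulk was at 0.109% and the highest bud at 0.0661%, so the groups did not overlap. The buds were alike in this sum, from 0.0631% to 0.0661%, whereas the bulks spread up to 0.159%. The sum includes genes that rose or did not pass, which made up more of it in buds. In CPM the sum averaged 1356.5 in bulks and 637.5 in buds. BUB3, SMC2, FZR1 and RACGAP1 averaged 94.1, 70.3, 53.6 and 40.3 CPM in bulks. In buds these 4 averaged 123, 116, 88.1 and 47.3 CPM. Of the 42 genes that fell, 33 had their lowest bulk value in flask 264 and 26 their highest in flask 274.

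**Figure D1:**
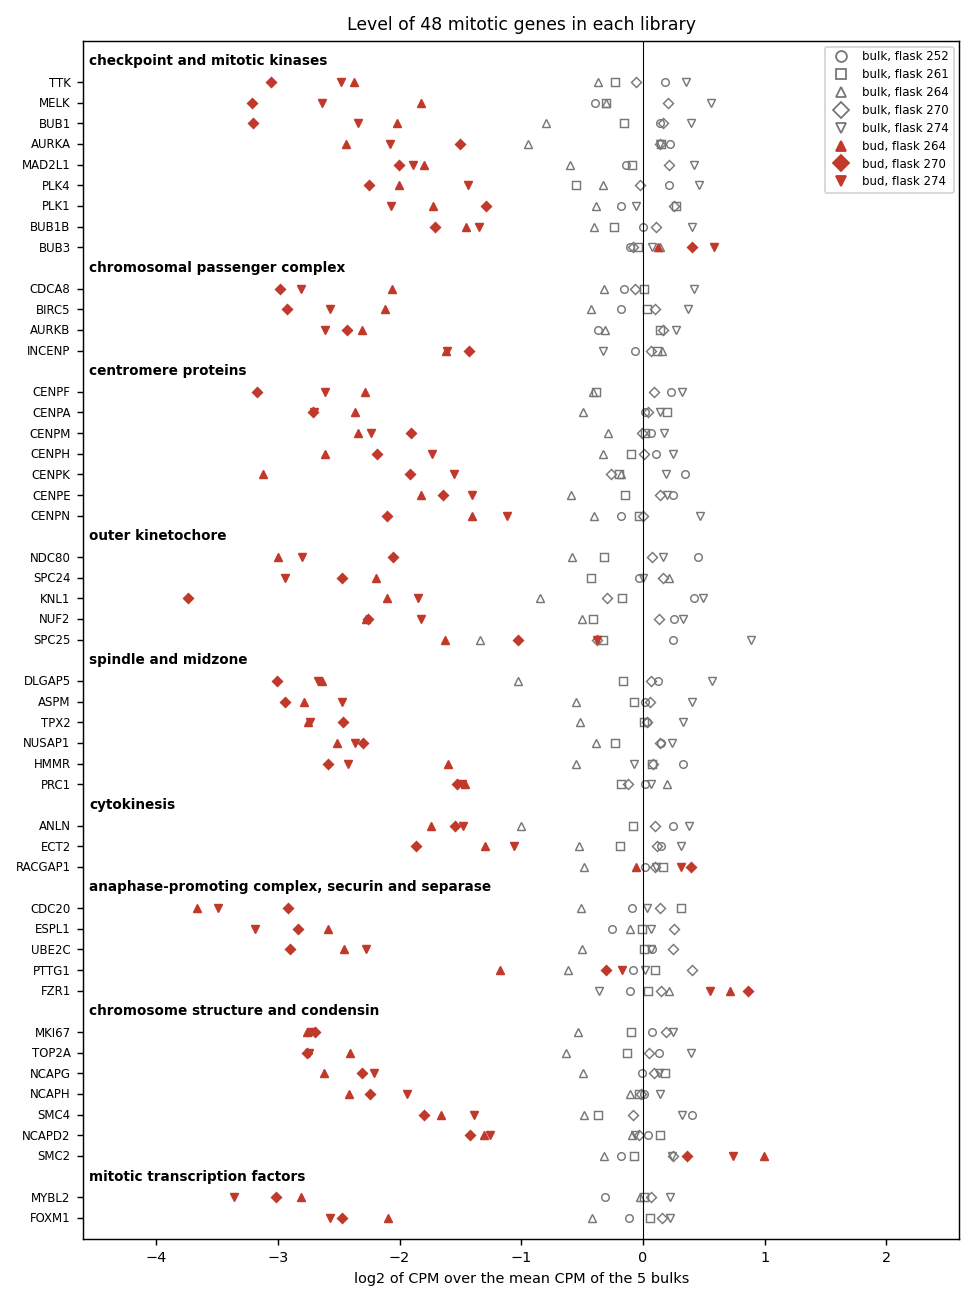
Level of each of the 48 genes in each library, as the log2 of its CPM over the mean CPM of the 5 bulks (x axis), grouped by role; open grey symbols are bulks and filled red symbols buds, with 1 symbol shape per flask. For 42 genes all red symbols lie left of all grey ones, while for SPC25, PTTG1, RACGAP1 and BUB3 they overlap, and for FZR1 and SMC2 they lie to the right.

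Markers of several cell types also differed between buds and bulks, and the part of cell types in the result was not tested. Of 12 endocrine markers 8 rose (6 with the flask as a block), and the summed level of the 12 was 2370 to 9582 CPM in bulks and 12859 to 24096 CPM in buds. CHGA and SST had the highest levels of the 12 in every bud. INSM1, NEUROD1, INS and GCG did not pass, with GCG at a log2 difference of -0.47 ± 0.51. Of 10 markers of pancreatic progenitors and epithelium 9 fell, from 2660 to 3571 CPM in bulks to 1206 to 1712 CPM in buds. All 7 neuron markers rose, from 646 to 1086 CPM in bulks to 2849 to 4090 CPM in buds. Most endocrine markers and all neuron markers thus moved against most of the 48 genes, and most progenitor and epithelial markers moved with them. Of 8 mesenchymal markers 6 were tested, of which 2 fell and 1 rose (2 and 2 with the flask as a block). COL1A1 fell in both fits, ACTA2 only without the block and PDGFRB only with it. PDGFRA rose in both fits and COL3A1 only with the block. The sums of the 8 overlapped at 30.0 to 92.9 CPM in bulks and 28.3 to 109 CPM in buds. Of 5 markers of endothelium and blood, KDR rose, PECAM1, CDH5 and PTPRC had at most 4 counts in any library, and HBG1 was at 0 in all. Their sums were 0.989 to 2.78 CPM in bulks and 6.002 to 9.44 CPM in buds. Of 5 markers of pluripotent stem cells, LIN28A fell, and NANOG, POU5F1, TDGF1 and UTF1 had at most 6 counts in any library. The sums of these 5 were 19.9 to 64.2 CPM in bulks and 3.05 to 6.28 CPM in buds.

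The promoters of 6 of the genes are shown, some picked for a large fall and a CHR and the others for a small change. The CHR of the first kind was thus fixed by the choice, and the set does not compare fallen genes with others. CDC20, ESPL1, DLGAP5 and MKI67 had the largest falls among genes whose promoter holds a CHR. MYBL2 fell more than ESPL1, but its window holds no CHR, so it is not shown. PTTG1, which did not pass, and SMC2, which rose, had the smallest changes among genes with an entry in the promoter table. Each sequence holds 250 bases before and 50 bases from the transcription start, 5′ to 3′ on the gene's strand, from RefSeq on GRCh38.p14. Capitals mark the CHR (TTTGAA or its variant TTCGAA) and the CCAAT box (CCAAT), the binding site of the factor NF-Y, on either strand, where neighbouring matches can run together. The windows are chr1:43358731-43359030 (plus strand) for CDC20, chr12:53268049-53268348 (plus) for ESPL1, chr14:55191536-55191835 (minus) for DLGAP5, chr10:128126374-128126673 (minus) for MKI67, chr5:160421605-160421904 (plus) for PTTG1 and chr9:104094059-104094358 (plus) for SMC2.
CDC20: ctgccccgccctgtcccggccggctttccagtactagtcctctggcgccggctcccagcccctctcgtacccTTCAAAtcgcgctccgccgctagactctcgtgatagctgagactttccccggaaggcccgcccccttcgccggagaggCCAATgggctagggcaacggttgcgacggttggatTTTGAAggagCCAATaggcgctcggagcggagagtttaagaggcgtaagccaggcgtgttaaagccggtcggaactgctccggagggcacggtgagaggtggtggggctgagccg
ESPL1: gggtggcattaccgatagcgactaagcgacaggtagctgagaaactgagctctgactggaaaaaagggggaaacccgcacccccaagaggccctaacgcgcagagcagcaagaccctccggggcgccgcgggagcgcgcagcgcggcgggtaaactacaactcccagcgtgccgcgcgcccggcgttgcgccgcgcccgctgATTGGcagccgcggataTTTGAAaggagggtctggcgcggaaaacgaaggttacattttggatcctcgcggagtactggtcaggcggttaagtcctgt
DLGAP5: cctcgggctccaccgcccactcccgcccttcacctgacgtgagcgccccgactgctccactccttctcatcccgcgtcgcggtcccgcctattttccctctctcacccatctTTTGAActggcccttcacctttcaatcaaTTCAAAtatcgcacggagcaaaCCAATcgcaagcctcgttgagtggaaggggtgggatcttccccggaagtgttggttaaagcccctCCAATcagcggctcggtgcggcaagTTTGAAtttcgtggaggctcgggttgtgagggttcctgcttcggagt
MKI67: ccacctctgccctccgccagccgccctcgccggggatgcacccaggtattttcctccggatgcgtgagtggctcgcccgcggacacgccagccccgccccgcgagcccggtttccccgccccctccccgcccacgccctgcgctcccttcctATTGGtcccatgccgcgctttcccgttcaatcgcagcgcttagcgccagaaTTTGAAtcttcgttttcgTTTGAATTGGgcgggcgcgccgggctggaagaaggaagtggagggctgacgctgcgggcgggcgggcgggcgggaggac
PTTG1: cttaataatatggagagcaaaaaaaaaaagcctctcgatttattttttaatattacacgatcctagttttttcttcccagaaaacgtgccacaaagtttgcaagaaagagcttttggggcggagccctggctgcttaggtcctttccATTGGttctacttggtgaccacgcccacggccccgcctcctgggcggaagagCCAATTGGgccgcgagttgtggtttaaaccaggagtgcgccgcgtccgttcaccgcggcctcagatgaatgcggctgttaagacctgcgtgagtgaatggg
SMC2: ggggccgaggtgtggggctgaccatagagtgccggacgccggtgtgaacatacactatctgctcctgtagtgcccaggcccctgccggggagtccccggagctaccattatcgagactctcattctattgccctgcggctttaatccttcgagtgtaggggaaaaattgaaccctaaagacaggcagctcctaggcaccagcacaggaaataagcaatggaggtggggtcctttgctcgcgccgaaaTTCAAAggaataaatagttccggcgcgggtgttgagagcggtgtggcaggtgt
CDC20 holds 2 CHR matches and 2 CCAAT boxes, ESPL1 holds 1 of each, DLGAP5 holds 3 and 2, and MKI67 holds 2 and 2. PTTG1 holds 3 CCAAT boxes and no CHR in this window. SMC2 holds 1 CHR, which begins 3 bases before the start, and no CCAAT box.

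Across the 37 of 48 genes with a promoter in the table, the exact CHR letters TTTGAA were present in 28 (75.7%, 95% Wilson interval 59.9 to 86.6%), on either strand, against 15.4% of all 27305 promoters. The CCAAT box was present in 25 (67.6%, interval 51.5 to 80.4%), against 35.7% of all promoters. The CHR variant TTCGAA was in 2 (5.41% against 1.45%), the E2F letters TTCCCGC in 4 (10.8% against 6.56%) and the TATA letters TATAAA in 3 (8.11% against 12%). Each motif was searched on both strands. The motifs can share bases, as where a CHR runs into a reversed CCAAT box in MKI67 (TTTGAATTGG). A CHR or its variant stood together with a CCAAT box in 20 of the 37, against 6.58% of all promoters. Of the 33 matched genes that fell, 26 held a CHR or its variant. Of the 4 matched genes that rose or did not pass, 3 held one (FZR1, SMC2 and SPC25). The 7 that fell without either were AURKB, CENPE, CENPK, MELK, MYBL2, NCAPH and SPC24. A match describes the letters of this window and says nothing of binding.

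**Figure D2:**
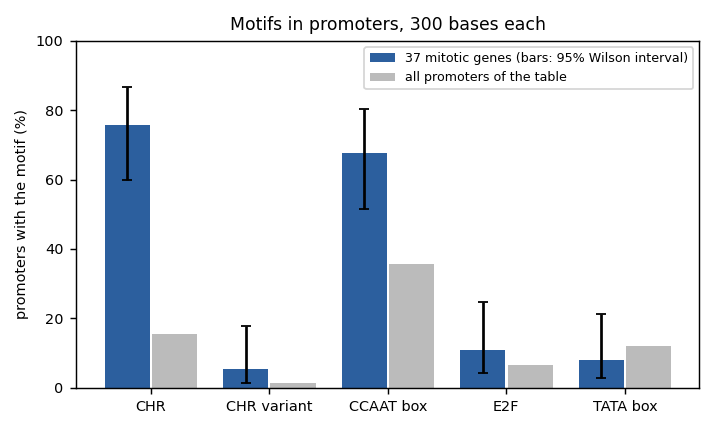
Share of promoters (y axis, %) that hold each motif (x axis) in 300 bases, for the 37 mitotic genes in blue with 95% Wilson intervals and for all promoters of the table in grey. The CHR is at 75.7% against 15.4% and the CCAAT box at 67.6% against 35.7%, while the TATA box is at 8.11% against 12%.

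Among 9 genes of the spindle assembly checkpoint and the mitotic kinases, 8 fell and 1, BUB3, rose (median log2 difference -1.90). TTK, the kinase MPS1 that starts the checkpoint at unattached kinetochores, had 19.8, 14.9, 13.5, 16.8 and 22.3 CPM in bulks and 3.37, 2.09 and 3.13 CPM in buds. No bud came near a bulk, and TTK fell by 2.62 ± 0.25 (edgeR adjusted p = 3.08e-05). BUB1, the kinase that recruits other checkpoint proteins, fell by 2.47 ± 0.34, and BUB1B, which encodes BubR1 of the complex that inhibits CDC20, by 1.5 ± 0.22. BUB1B shares 3696 bases with PAK6 on the same strand (mean 9.16 CPM over bulks, 39.8 CPM over buds). MAD2L1, which binds CDC20 in that complex, fell by 1.90 ± 0.24. Of the kinases, MELK fell by 2.49 ± 0.36, AURKA of the spindle poles by 1.94 ± 0.31, PLK4, which starts centriole duplication, by 1.85 ± 0.30, and PLK1, which acts from mitotic entry to exit, by 1.66 ± 0.25.

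BUB3 stood apart from its partners. It encodes the protein that docks BUB1 and BubR1 at the kinetochore, and it had 87.6, 91.5, 103, 88.9 and 99.2 CPM in bulks and 102, 125 and 141 CPM in buds. The bud of flask 264 lay within the bulks and the other two buds above them. BUB3 rose by 0.38 ± 0.13 on the log2 scale (edgeR adjusted p = 0.0293), a call that was lost with the flask as a block (0.126) and in 5 of 8 fits that each left out 1 library. These were the fits without the bud of flask 270 (0.0581) or 274 (0.141) or the bulk of flask 252 (0.0654), 261 (0.0556) or 270 (0.0614), edgeR adjusted p in brackets.

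All 4 genes of the chromosomal passenger complex, which corrects wrong attachments and guides cytokinesis, fell (median -2.49). CDCA8, which encodes the targeting subunit borealin, had 11.6, 13.0, 10.4, 12.4 and 17.3 CPM in bulks and 3.10, 1.64 and 1.85 CPM in buds. The groups were well apart, with a fall of 2.59 ± 0.28 (edgeR adjusted p = 5.55e-05). BIRC5, which encodes survivin, fell by 2.52 ± 0.24 and the kinase AURKB by 2.45 ± 0.27. INCENP, the scaffold that activates AURKB, fell by 1.55 ± 0.16.

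All 7 centromere genes fell (median -2.11). CENPF, a large protein of the outer plate of mitotic kinetochores, had 97.8, 64.0, 62.8, 88.7 and 104 CPM in bulks and 17.1, 9.28 and 13.6 CPM in buds. Its groups did not overlap, and it fell by 2.66 ± 0.26 (edgeR adjusted p = 3.04e-05). CENPA, the histone H3 variant that marks the centromere, fell by 2.59 ± 0.31 from a low level, with bulks at 4.17 ± 0.711 CPM (SD, n = 5) and buds at 0.696 ± 0.0979 CPM (SD, n = 3). The constitutive centromere proteins CENPM, CENPH and CENPN fell by 2.12 ± 0.29, 2.10 ± 0.26 and 1.49 ± 0.28, CENPK fell by 2.0045 ± 0.33, and the kinetochore motor CENPE by 1.61 ± 0.24. CENPA overlaps SLC35F6 on the same strand (16.5 CPM in bulks and 18.4 CPM in buds), and CENPN overlaps CMC2 on the opposite strand (14.9 and 22.7 CPM).

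Of 5 outer kinetochore genes, which form the microtubule grip, 4 fell and SPC25 did not pass (median -2.36). NDC80, which encodes the subunit that binds the microtubule, had 20.6, 12.1, 10.1, 15.8 and 16.9 CPM in bulks and 1.89, 3.64 and 2.17 CPM in buds. All buds were below all bulks, and it fell by 2.54 ± 0.31 (edgeR adjusted p = 0.000111). Its partner NUF2 fell by 2.09 ± 0.30, SPC24 by 2.52 ± 0.30 and the scaffold KNL1, which recruits BUB1, by 2.36 ± 0.44. NUF2 lies over RGS5 on the opposite strand (mean 77.5 CPM over bulks, 10.5 CPM over buds).

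SPC25, the partner of SPC24 in the NDC80 complex, had 1.98, 1.33, 0.659, 1.28 and 3.10 CPM in bulks and 0.539, 0.819 and 1.28 CPM in buds, the lowest level per length of the 48 genes in bulks. These were 4, 9 and 16 reads in the buds, and the groups overlapped. The difference was -0.89 ± 0.50 (95% interval -1.996 to 0.21, edgeR adjusted p = 0.167), so a fall of close to 4-fold could not be told from none at this depth. SPC25 also overlaps NOSTRIN (1.53 CPM in bulks, 5.25 CPM in buds) and G6PC2 (0.727 and 6.68 CPM) on the opposite strand. The use of strand in the authors' counting is not given in the sources used here, and without it reads of such gene pairs cannot be told apart.

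All 6 genes of the spindle and its midzone fell (median -2.52). DLGAP5, which encodes the microtubule-binding protein HURP, had 18.4, 15.01, 8.24, 17.6 and 24.98 CPM in bulks and 2.70, 2.09 and 2.65 CPM in buds. The bulks varied about 3-fold and the lowest, of flask 264, was still above every bud; DLGAP5 fell by 2.77 ± 0.35 (edgeR adjusted p = 0.000116). ASPM of the spindle poles fell by 2.71 ± 0.25, TPX2, which activates AURKA on the spindle, by 2.64 ± 0.20, NUSAP1 by 2.39 ± 0.20 and HMMR by 2.17 ± 0.31. PRC1, which bundles the microtubules of the midzone, had the smallest fall of these, 1.49 ± 0.14.

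Of 3 cytokinesis genes, ANLN and ECT2 fell and RACGAP1 did not pass (median -1.37). ANLN, the scaffold anillin of the contractile ring, had 36.9, 29.4, 15.5, 33.2 and 40.5 CPM in bulks and 9.30, 10.6 and 11.2 CPM in buds. Its highest bud was closer to its lowest bulk, that of flask 264, than for any other gene that fell (a ratio of 1.39), and it fell by 1.58 ± 0.28 (edgeR adjusted p = 0.000935). ECT2, the exchange factor that activates RhoA at the division plane, fell by 1.37 ± 0.25.

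RACGAP1, which binds ECT2 and forms the centralspindlin complex with the kinesin KIF23, had 40.8, 45.3, 28.8, 43.3 and 43.4 CPM in bulks and 38.8, 53.1 and 50.01 CPM in buds. The bud of flask 264 lay inside the range of the bulks and the other two above it. The difference was 0.23 ± 0.17 (95% interval -0.14 to 0.60, edgeR adjusted p = 0.287).

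Genes of the anaphase switch went in different directions: 3 of 5 fell, FZR1 rose and PTTG1 did not pass (median -2.52). CDC20 had 16.1, 21.3, 12.03, 18.9 and 17.5 CPM in bulks and 1.35, 2.27 and 1.53 CPM in buds. No bud reached 1 in 4 of the lowest bulk, and CDC20 fell by 3.299 ± 0.27 (edgeR adjusted p = 1.79e-05), or 9.84-fold, which was the largest of the 48. ESPL1, which encodes separase, had 19.0, 22.6, 21.1, 27.2 and 23.8 CPM in bulks and 3.78, 3.18 and 2.49 CPM in buds.

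ESPL1 fell by 2.87 ± 0.21 with groups far apart (edgeR adjusted p = 1.26e-05), the third largest fall of the 48. UBE2C, the E2 enzyme that starts the ubiquitin chains of the anaphase-promoting complex, fell by 2.52 ± 0.28. PTTG1, which encodes securin, the inhibitor of separase, had 12.4, 14.1, 8.57, 17.3 and 13.2 CPM in bulks and 5.80, 10.6 and 11.6 CPM in buds. The groups overlapped, although the bud was below the bulk in each of the 3 shared flasks, and the difference was -0.48 ± 0.27 (95% interval -1.08 to 0.12, edgeR adjusted p = 0.169). The near copies PTTG2 and PTTG3P were at 0 counts in every library.

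FZR1, which encodes CDH1, the activator of the anaphase-promoting complex in late mitosis and in G1 and resting cells, had 49.7, 55.1, 62.1, 59.5 and 41.6 CPM in bulks and 88.2, 97.5 and 78.7 CPM in buds. Every bud lay above every bulk, as for 23.5% of all genes. FZR1 rose by 0.72 ± 0.15 on the log2 scale (edgeR adjusted p = 0.00231; 0.00984 with the flask as a block), the largest rise of the 48.

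Of 7 genes of chromosome structure and condensin, 6 fell and SMC2 rose (median -2.17). MKI67, which coats mitotic chromosomes and is the usual marker of dividing cells, had 71.2, 63.1, 46.8, 77.3 and 80.3 CPM in bulks and 9.98, 10.5 and 10.2 CPM in buds. The buds were nearly equal and the bulks were all at least 4 times higher; it fell by 2.73 ± 0.20 (edgeR adjusted p = 1.23e-05). TOP2A, the topoisomerase that untangles sister chromatids, fell by 2.64 ± 0.23. Of the condensin I subunits, NCAPG fell by 2.36 ± 0.21, NCAPH, which closes the ring, by 2.17 ± 0.19 and NCAPD2 by 1.33 ± 0.11, the smallest fall among the 42.

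The condensin core is a pair of ATPases, SMC2 and SMC4, which parted in these samples. SMC4 fell by 1.61 ± 0.23. SMC2 had 62.1, 66.7, 56.2, 83.4 and 82.8 CPM in bulks and 140, 90.04 and 117 CPM in buds, so that every bud was above every bulk, with the bud of flask 270 closest to them. SMC2 rose by 0.71 ± 0.18 on the log2 scale (edgeR adjusted p = 0.0067), a call lost with the flask as a block (0.0883).

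Both transcription factors fell. MYBL2, which encodes B-Myb, the partner of the MuvB complex at mitotic promoters, had 16.0, 19.9, 19.4, 20.7 and 23.1 CPM in bulks and 2.83, 2.46 and 1.93 CPM in buds. The gap between its lowest bulk and its highest bud was the widest of the 42 (5.65-fold), and it fell by 3.06 ± 0.21 (edgeR adjusted p = 1.17e-05). FOXM1, which takes over from B-Myb at these promoters in G2, fell by 2.38 ± 0.22. No promoter match for the CHR or CCAAT letters was found in the MYBL2 window, and FOXM1 has no entry in the table.

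**Figure D3:**
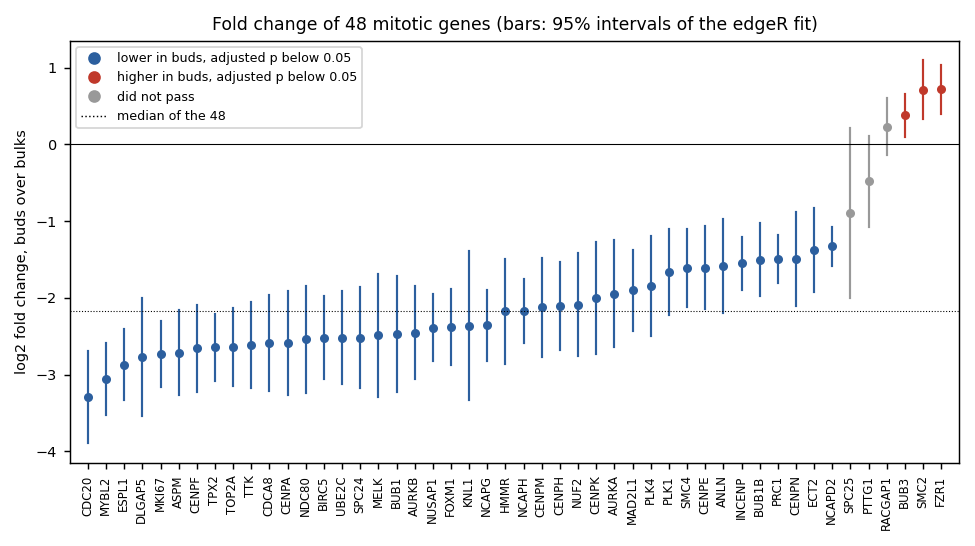
Log2 fold change, buds over bulks (y axis), of each of the 48 genes (x axis), with 95% intervals from edgeR's fit as bars; blue fell, red rose, grey did not pass, and the dotted line is the median. The genes that fell run from -3.299 for CDC20 to -1.33 for NCAPD2, and the 3 that rose are BUB3, SMC2 and FZR1.

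Levels per kilobase of merged exons ordered the genes differently in the 2 groups. In bulks TPX2 was highest at 22.2 CPM per kb, followed by NCAPD2 at 17.2, TOP2A at 16.0, BUB3 at 11.52 and SMC2 at 10.9. In buds SMC2 was highest at 17.9 CPM per kb, followed by BUB3 at 15.004, FZR1 at 13.6, RACGAP1 at 10.5 and NCAPD2 at 6.85. Thus 4 genes that did not fall led the order in buds, a comparison of levels that was not tested. Among genes that fell, KNL1 was lowest in bulks, at 1.19 CPM per kb.

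Unequal change within pairs of related genes was examined for 12 pairs, chosen with earlier results of these data known, each as the log2 ratio of the pair's CPM + 0.5 within a library, and tested by exact permutation, two-sided, of the group labels. With 56 ways to label the 8 libraries the smallest exact permutation p is 0.0179. This test treats the libraries as independent, although 3 buds share flasks with 3 bulks, and an exact permutation within the 3 shared flasks cannot go below 0.25. In 10 pairs every bud lay on 1 side of every bulk, and each reached this smallest value (exact permutation p = 0.0179, adjusted over 12 pairs 0.0214). Because of how the pairs were chosen, these p-values describe the separation and are not independent support. CDC20 over FZR1 and BUB1 over BUB3 set a gene that fell against a gene that rose in the same libraries. In each of the 10 the bud also differed in that direction from the bulk of its own flask in all 3 flasks. The mitotic activator CDC20 fell against FZR1, with a log2 ratio of -1.63 ± 0.42 in bulks (SD, n = 5) and -5.34 ± 0.23 in buds (SD, n = 3). The log2 ratio of BUB1 over BUB3 fell by 2.59. Each condensin I subunit fell against its condensin II counterpart, with log2 ratios that differed by -1.30 for NCAPG over NCAPG2, -1.88 for NCAPH over NCAPH2 and -0.87 for NCAPD2 over NCAPD3. TOP2A over TOP2B, the topoisomerase that resting cells also use, differed by -2.24, and MYBL2 over MYB by -2.05.

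The log2 ratio of NDC80 over MIS12, whose complex anchors it, differed by -2.09, and that of CENPA over CENPC, which binds CENPA nucleosomes, by -1.64. SMC2 over SMC3 of cohesin went the other way, by 1.45. AURKB against its scaffold INCENP differed by -0.56 (exact permutation p = 0.0536, adjusted 0.0584), and PLK1 against PLK4 by 0.16 (exact permutation p = 0.732, adjusted 0.732). None of the 12 passed when any bud library was left out. The smallest exact permutation p is then 0.0476 before adjustment, and the smallest adjusted value was 0.0571. A further 4 pairs, in which 1 gene fell and its direct partner rose or did not pass, were picked directly on their values and carry no test. The log2 ratio went from 0.11 ± 0.37 in bulks to 2.37 ± 0.29 in buds for SMC2 over SMC4, from -0.79 ± 0.27 to 1.39 ± 0.75 for PTTG1 over ESPL1 and from 0.83 ± 0.25 to 3.43 ± 0.21 for RACGAP1 over KIF23.

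**Figure D4:**
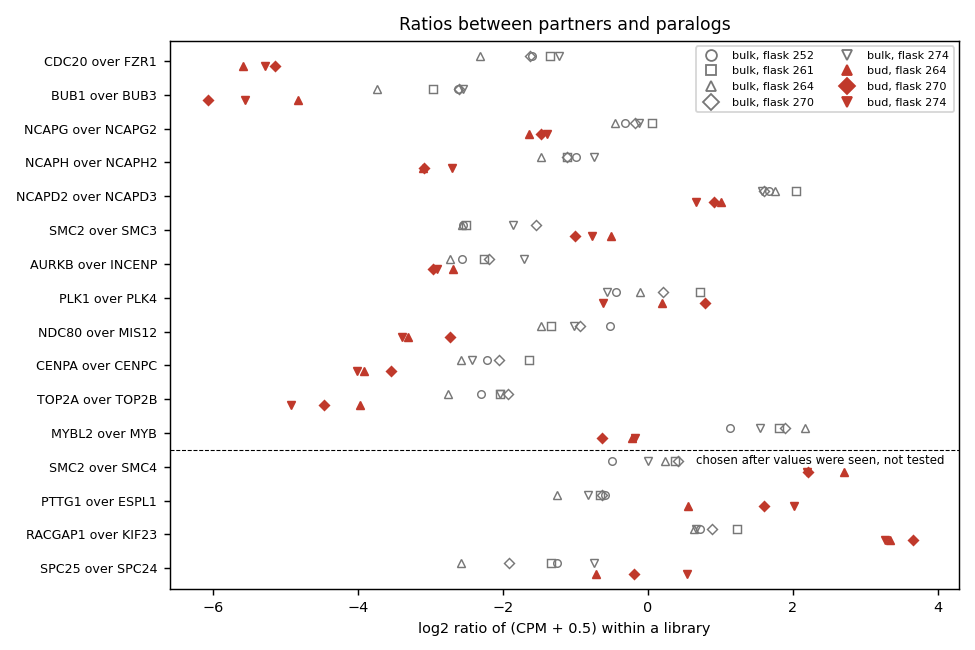
Log2 ratio of CPM + 0.5 within each library (x axis) for 12 pairs tested and, below them, 4 pairs chosen after their values were seen; grey symbols are the 5 bulks and red symbols the 3 buds. CDC20 over FZR1 moves from -1.63 to -5.34 on average, and SMC2 over SMC4 from 0.11 to 2.37.

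The rest of the mitotic apparatus was less uniform. In 8 further lists with 109 genes in all, 59 fell (54.1%, against 23.8% of all genes tested) and 4 rose (3.67%, against 23.4%), with a median log2 difference of -0.60. In a list of their own, the 12 mitotic kinesins, the motors of the spindle, all fell (median -2.47), from KIF20A of the midzone, by 3.05 ± 0.36, to KIF22, which pushes chromosome arms, by 1.57 ± 0.19. Of 8 other cytokinesis genes 7 fell (median -1.85), CEP55 of the midbody by 2.84 ± 0.35, and RHOA, the GTPase of the ring and of the cytoskeleton in all cells, was at -0.02 ± 0.12 (95% interval -0.29 to 0.25).

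Of 15 other genes of the inner kinetochore and of CENPA loading, 10 fell and none rose (median -1.10). HJURP, the chaperone that loads CENPA, fell by 2.83 ± 0.38, and CENPS, which also acts in DNA repair, had 0.29 ± 0.17. Of 20 other outer kinetochore and checkpoint genes 12 fell (median -1.07). HASPIN, the histone kinase that places the passenger complex, fell by 2.96 ± 0.39, while NSL1 of the MIS12 complex was at 0.03 ± 0.17. Of 24 other spindle and centrosome genes 15 fell (median -0.77), SPAG5, which encodes astrin, by 2.36 ± 0.18, and HAUS2 of the augmin complex had 0.35 ± 0.18.

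Lists with roles outside mitosis, cohesin, the anaphase-promoting complex and MuvB, had medians nearer 0. Of 16 subunits and regulators of the anaphase-promoting complex, 4 fell, a share near the 23.8% of all genes, and 2 rose, a share below the 23.4% of all genes (median -0.09). FBXO5, which encodes the inhibitor EMI1, fell by 0.92 ± 0.16, UBE2S, which extends the ubiquitin chains, rose by 1.14 ± 0.20, and the subunit CDC27 rose by 0.54 ± 0.20 (edgeR adjusted p = 0.0471, at most 0.233 with 1 library left out). Of 12 cohesin genes 5 fell (41.7%) and 2 rose (16.7%; median -0.20). ESCO2, which acetylates cohesin in S phase, fell by 2.72 ± 0.32, and the ring subunit RAD21 and its regulator PDS5B rose by 0.68 ± 0.17 and 0.64 ± 0.17 (edgeR adjusted p = 0.0105 for PDS5B, 0.0619 without the bud of flask 274).

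Of 11 MuvB and DREAM subunits 4 fell (36.4%; median -0.07), RBL1, which encodes p107, by 1.49 ± 0.26, and RBL2, which encodes p130 of resting cells, was at 0.19 ± 0.10 (95% interval -0.03 to 0.41). Of 3 condensin II subunits, NCAPG2 fell by 0.96 ± 0.14 and NCAPD3 by 0.45 ± 0.15 (edgeR adjusted p = 0.0307, at most 0.155 with 1 library left out), and NCAPH2 was at -0.17 ± 0.14. Beside mitosis, 29 of 30 DNA replication genes fell (median -1.71), with TYMS, thymidylate synthase, at the head. TYMS fell by 2.85 ± 0.24, and the clamp loader subunit RFC3 was at 0.06 ± 0.24.

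**Figure D5:**
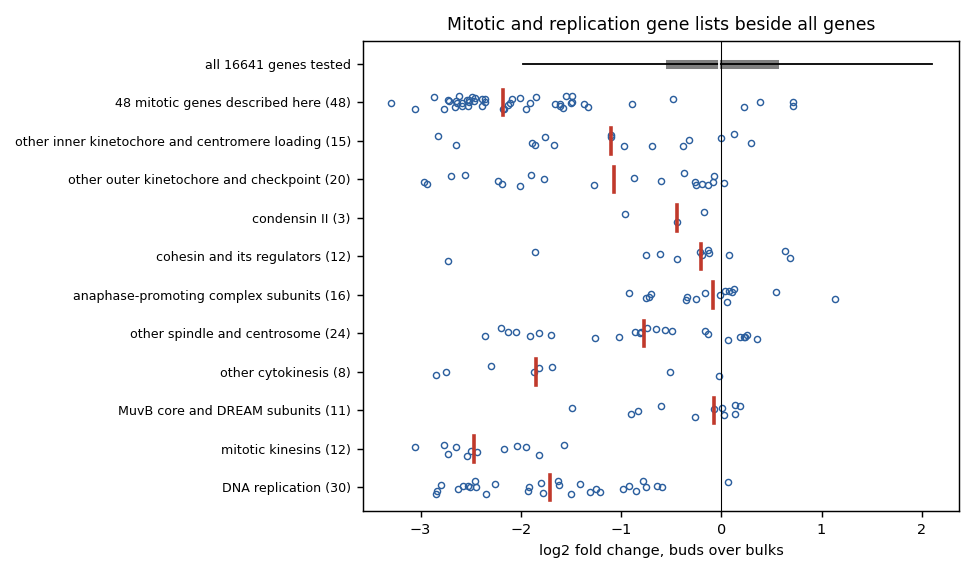
Log2 fold change, buds over bulks (x axis), of each gene of the 48 and of each other list (rows), 1 point per gene with the median as a red line; for all genes tested the thin line spans the 5th to 95th percentile and the bar the 25th to 75th. Mitotic kinesins, with a median of -2.47, lie as low as the 48 genes, while anaphase-promoting complex subunits, MuvB subunits and cohesin centre near 0.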

How the data were processed

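The deposited table holds expected counts, 1 row per Ensembl gene and 1 column per library. The authors used RSEM with the STAR aligner and the GRCh38 genome, per the submitters' processing notes and the design text. Tool versions, annotation release and strand setting were not given in the sources used here. Per the labels' protocols, polyadenylated RNA was selected. RSEM divides reads that match several genes, and 11.5% of the values were not whole.

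Expected counts were rounded, and 57392 of 58233 rows (98.6%) were matched by identifier to GENCODE release 44 symbols. Buds were tested against bulks with edgeR 4.0.16 in R 4.3.3 (TMM, filter by group with minimum count 10 and total 15, quasi-likelihood F test, Benjamini-Hochberg adjustment, threshold 0.05, no covariate). The filter kept 16641 genes and all 48 described, whose lowest count in any library was 4 (SPC25, bulk of flask 264). Pair ratios used CPM + 0.5 and an exact permutation test (SciPy 1.17.1). Motifs were searched in RefSeq promoters with Python 3.11.15, by exact letters. Counting limits the precision of low genes, and Wilson intervals cover counting error only. The fit was tested on simulated counts.

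The labels tie each bud to the bulk of its flask. The 2 libraries' deviations from their group means had correlations of 0.127, 0.150 and 0.327 in flasks 264, 270 and 274. The 12 pairs from different flasks ran from -0.274 to 0.222, a range that holds the values of flasks 264 and 270. The buds of flasks 270 and 274 each correlated most with the bulk of their own flask. The bud of flask 264 correlated slightly more with the bulk of flask 261 (0.15) than with its own. The pairing rests on the labels, and so few pairs cannot settle whether libraries of a flask vary together. The fit with flask as a block is given beside each of the 48 genes whose call it changed and each marker count it moved. No libraries within a group matched within sampling noise (lowest chi-square per gene 9.38, bulks of flasks 270 and 274).

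The 48 genes and all lists, pairs and motifs were chosen with earlier results of these data known. Values per library are given for the first gene of each role, the 3 largest and 3 smallest changes, genes that did not pass and genes that rose. In other lists the most negative and most positive gene and those called against the majority are named. Alternatives were DESeq2 1.42.0 and its size factors, upper-quartile and unscaled libraries, other expression filters, the flask block, a threshold of 0.01, other pseudocounts, a promoter window of 150 bases, and leaving out each library.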

Additional observations from a re-analysis of the deposited data

Results flagged for a closer look

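In 4 of 110 values examined, 1 bulk lay far from the other 4, with a gap of over 0.71 of the group's range. Chance alone marks about 1 in 20 such groups, and the 110 values share 5 libraries. AURKA was at 7.25 CPM in the bulk of flask 264, against 15.4 to 16.3 CPM in the other bulks (a gap of 0.902 of the range). RACGAP1 was at 28.8 CPM in the same bulk, against 40.8 to 45.3 CPM (gap 0.73). CENPS was at 19.2 CPM in the bulk of flask 270, against 13.0 to 13.6 CPM (gap 0.914). The summed CPM of 30 DNA replication genes over that of 12 mitotic kinesins, a ratio chosen after the values were seen, was 8.05 in the bulk of flask 264, against 5.34 to 6.03 in the other bulks (gap 0.745).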

How the results depend on the processing

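Of 765 values of the 48 genes under 16 settings, 757 kept their direction and side of the threshold and 8 lost the call, 7 of them for BUB3 and 1 for SMC2; the number that fell was 42 under every setting run except the filter of 5 CPM in 3 libraries, which left fewer genes to test (40). With the replicate block (flask, a paired fit) the number that rose was 1, FZR1, instead of 3, and it was 2 to 3 with 1 library left out; the block also gave 6 risen endocrine markers instead of 8 and 2 risen mesenchymal markers instead of 1, and 1 fallen gene fewer in the cohesin (4), MuvB (3), inner kinetochore (9) and spindle and centrosome (14) lists. Condensin II had 1 fallen gene instead of 2 with no expression filter and at a threshold of 0.01, and 1 to 2 with 1 library left out. Cohesin had 1 risen gene at 0.01 (1 to 2 with 1 library left out), the anaphase-promoting complex 1 with upper-quartile factors and at 0.01 (1 to 2), the 8 lists together 2 at 0.01 (2 to 4), and the inner kinetochore 0 to 1, CENPS rising without the bulk of flask 270. Unequal pairs numbered 0 without any single bud, 9 without the bulk of flask 274 and 10 without any other bulk. With 2 buds the smallest adjusted exact permutation p was 0.0571. AURKB over INCENP passed with a pseudocount of 0.1 (-0.81). TATA letters were in 2.70% of the 37 promoters within 150 bases. Values that changed sign, none of them called, were NSL1 (-0.016 with upper-quartile factors, -0.13 to 0.16 with 1 library left out), RFC3 (-0.039 with the block, -0.13 to 0.28), RHOA (0.0023 with no filter, 0.054 with the block, 0.016 unscaled, -0.070 to 0.066) and PLK1 over PLK4 (-0.17 to 0.53, negative without the bud of flask 270). The causes were not tested. Depth limits genes of few counts, such as SPC25, with 4 to 16 counts in buds.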

Other observations

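The ratio of summed DNA replication genes to summed mitotic kinesins was 5.34, 5.98, 8.05, 5.65 and 6.03 in the bulks of flasks 252, 261, 264, 270 and 274, and 9.47, 9.09 and 8.64 in the buds of flasks 264, 270 and 274. This ratio was chosen after its values were seen and carries no test. Every bud lay above every bulk, and the bulk of flask 264 lay nearest the buds. The summed kinesins were at 54.6 to 56.1 CPM in buds and 200 to 284 CPM in bulks, and the summed replication genes at 485 to 530 CPM in buds and 1433 to 1711 CPM in bulks. The log2 ratio of SPC25 over SPC24, the last of the pairs chosen after their values were seen, was -1.57 ± 0.70 in bulks (SD, n = 5) and -0.12 ± 0.64 in buds (SD, n = 3), from low counts.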
